A study of Mus musculus with 2 samples.

Results

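The genes of the EGF receptor family and their ligands were followed in kidneys lacking *Cnnm2*, which encodes a membrane protein of magnesium transport in the distal tubule. The set held the 10 genes *Egf*, *Tgfa*, *Hbegf*, *Areg*, *Ereg* and *Btc* (6 ligands) and *Egfr*, *Erbb2*, *Erbb3* and *Erbb4* (4 receptors), of 31829 gene names on the arrays. A gene belonged to it when its symbol was the gene name of a probe, which gave 13 probes. Mice of the genotype *Cnnm2*fl/fl;*Six2-Cre* (knockout) and of the genotype *Cnnm2*+/+;*Six2-Cre* (control), all 2 months old and untreated, gave the kidney RNA. Both genotypes carried *Six2-Cre*, a GFP-fused Cre recombinase active in the embryonic kidney, so the Cre was shared and the floxed alleles differed. RNA of both genotypes was hybridized together on 2 two-colour oligonucleotide arrays with exchanged dyes. The knockout was labelled with Cy5 on array 1 and with Cy3 on array 2. The number of mice and any pooling were not given, nor whether both arrays carried the same RNA, so the arrays count as 1 replicate of each genotype. The genotypes were compared without a test, and each ± is the SD of the 2 arrays, which may measure labelling and hybridization only.

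EGF family ligands are made as membrane-anchored precursors that proteases cut from the cell surface, and the released growth factor binds ErbB receptors, which pair and switch on the RAS-ERK and PI3K-AKT cascades. In the kidney, the EGF precursor is made mainly by the thick ascending limb and the distal convoluted tubule (DCT). EGF released there acts on EGFR at the basolateral side of DCT cells and raises the activity of TRPM6, the magnesium channel of this segment, and an inherited defect in its release causes renal magnesium wasting.

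The arrays gave 43020 spots of genes each, of which 62.6% to 68.0% were well above background in a channel. *Cnnm2* had log2 ratios of knockout over control of -2.88 on array 1 and -2.46 on array 2, so the deleted gene was lower in the channel labelled as knockout on both arrays. *Trpm6* had processed signals of 447 in the knockout and 1051 in the control on array 1, and 312 and 931 on array 2, a mean log2 ratio of -1.40 ± 0.24. The genes tested were the 19707 whose probe the software called well above background for at least one genotype, the same on array 1 and array 2. Markers of kidney tubule segments were all in this set (25 of 25), as were all 6 markers of urothelium.

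Of the 10 members, 8 were well above background, and *Areg* and *Ereg* were not. When a difference had to reach 2-fold and to keep its direction on each array, 0 members were called higher and 0 lower, where 0.315% of all genes tested were called higher and 0.284% lower. *Hbegf* was the only member higher in the knockout on both arrays (1 of 8, against 12.1% of all genes tested). *Erbb4* and *Btc* were lower on both (2 of 8, against 15.6%). Nothing particular to the members was read from these counts. The other 5 members, *Egf*, *Tgfa*, *Egfr*, *Erbb2* and *Erbb3*, changed direction when the dyes were exchanged. The median log2 ratio of the 8 members was -0.06, with medians of 0.02 on array 1 and -0.23 on array 2, and that of all genes tested was -0.01.

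**Figure D1:**
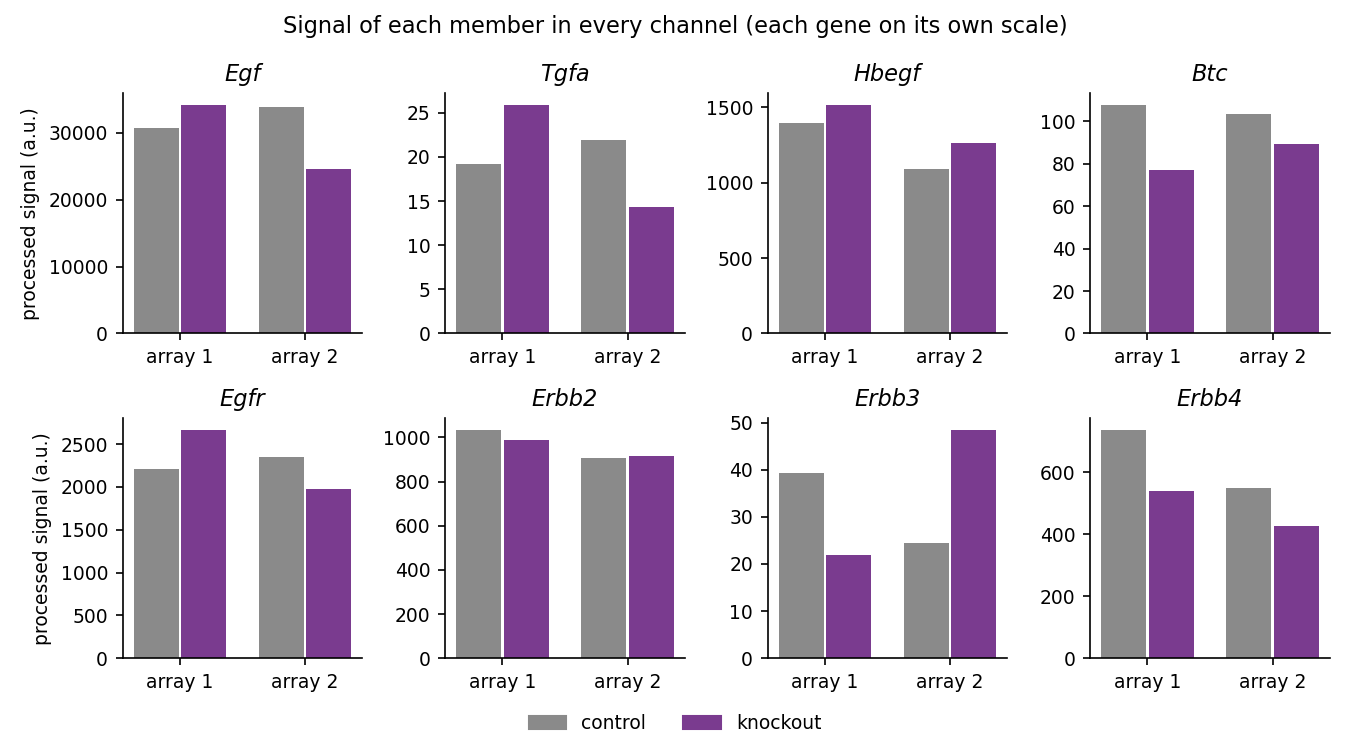
Processed signal (arbitrary units) of the 8 members above background in the control (grey) and knockout (purple) channel of each array, as the mean of the spots of the brightest probe, each gene on its own axis from 0. *Erbb4* and *Btc* are lower in the knockout on both arrays and *Hbegf* is higher on both, while the other 5 change order between the arrays.

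**Figure D2:**
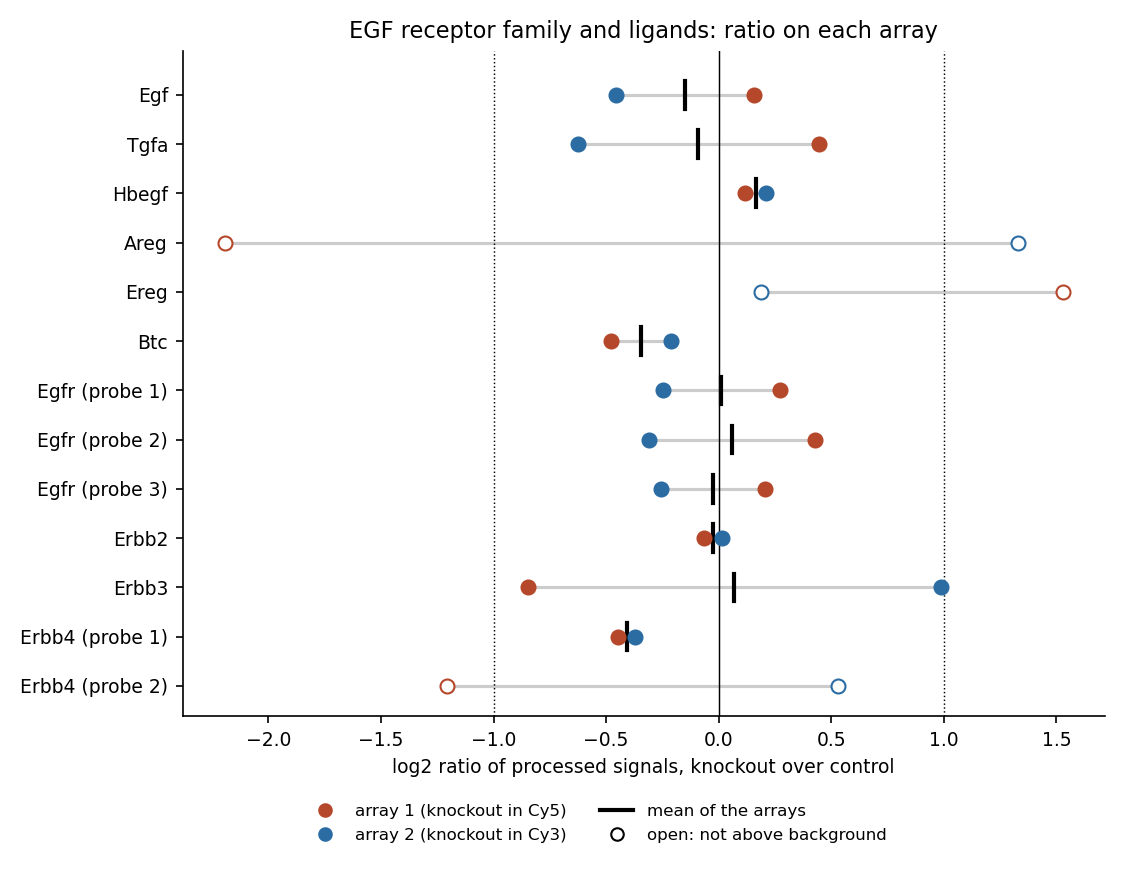
Log2 ratio of knockout over control for each of the 13 member probes, on array 1 (red) and array 2 (blue), with the mean of the arrays as a black bar for probes above background and the 2-fold limits dotted. Open circles are probes not well above background in either genotype. Probes are numbered within a gene from the brightest.

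*Egf*, the ligand that the distal tubule itself makes, read far above background in every channel. Its probe was printed 10 times on each array and lies on the minus strand at chr3:129380826-129380885 (mm9), at base 4364 of transcript NM_010113 by the design. Its first 30 bases are shown because the repeated spots of this probe give the closest look at a ligand of the distal tubule.
Egf: ataaatgatgtgatctacatagaagtctta
On array 1, *Egf* had a signal of 34185 in the knockout and 30688 in the control. On array 2, the knockout was at 24669.6 and the control at 33843.5. The knockout was thus the higher channel on array 1 and the lower one on array 2, Cy5 being the brighter dye both times. The log2 ratio was 0.16 over 10 spots of array 1, with a lowest value of 0.10, a median of 0.16 and a highest value of 0.19. Over the 9 spots kept on array 2, the lowest was -0.48, the median -0.45 and the highest -0.42. All spots of an array had the same sign, and the spot SDs of 0.031 and 0.023 were small beside the gap between the arrays. The mean log2 ratio was -0.15 ± 0.43, or 0.901 times the control level, and 31.3% of all genes tested had a larger mean ratio in size.

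Markers of the segments that make *Egf* were read in the same channels. Of the 8 markers of the thick ascending limb, 5 were lower and 1 was higher in the knockout on both arrays, with a median log2 ratio of -0.09. Of all genes tested, 15.6% were lower and 12.1% higher on both arrays, and 0.284% were called at least 2-fold lower. *Slc12a1* and *Cldn16* changed direction between the arrays. The summed signals of the 8 on array 1 were 183112 (knockout) and 202538 (control), and on array 2 they were 145826 and 161687. Most of each sum came from *Umod*, with 122832 and 129724 on array 1, and 100204 and 108436 on array 2. Of the 7 DCT markers, 3 were at least 2-fold lower on both arrays (*Pvalb*, *Calb1* and *Trpm6*), *Sgk1* was higher on both with log2 ratios of 0.67 and 0.40, and *Slc12a3*, *Klhl3* and *Emx1* were lower on array 1 and higher on array 2. The median of the 7 was -0.41, from -1.09 on array 1 and 0.19 on array 2. The DCT sums were 13240.4 against 18449.8 on array 1 and 11574 against 13279.5 on array 2. All of these markers were above background. Their part in the value of *Egf* was not tested, and in whole kidney, fewer cells of a segment and less RNA per cell cannot be told apart.

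*Hbegf* encodes heparin-binding EGF-like growth factor, a ligand of EGFR and ERBB4 that many epithelia make when stressed. Its single probe lies on the minus strand of chromosome 18 at 36664738-36664797 (mm9). Array 1 read 1516 for the knockout and 1399 for the control, and array 2 read 1262 and 1090.2. The knockout was above the control on each array, with log2 ratios of 0.12 and 0.21. The mean was 0.16 ± 0.07, or 1.12 times the control level. A larger mean ratio in size was found for 28.1% of all genes tested. Of all genes tested, 12.1% were higher and 15.6% lower on both arrays. All 6 urothelial markers were higher on both, with a median of 0.63 and sums of 2528 against 1806 and 2165 against 1447 in knockout and control. Of the 4 markers of tubular injury, 3 were higher on both arrays and 1 was lower, and their sums were 7561 against 6511 and 6477 against 5066. The 7 macrophage markers had a median of -0.05, and 0 of them were higher and 1 was lower on both arrays. The part of these cells in the value of *Hbegf* was not tested.

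*Btc* encodes betacellulin, which also binds EGFR and ERBB4. Its probe lies on the minus strand at chr5:91786948-91787007. Array 1 read 77.2 for the knockout and 108 for the control, and array 2 read 89.2 and 103. The knockout was lower each time, with log2 ratios of -0.48 and -0.21 and a mean of -0.35 ± 0.19, or 0.786 times the control level. Before background subtraction, the spots of *Btc* read 207, 168, 178 and 288 over local backgrounds of 38, 36, 38 and 43.5, in the order knockout and control of array 1, then of array 2. The probe was therefore well above background but dim, and its value depended on how background was treated. With the normexp correction, the mean log2 ratio was -0.10.

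*Tgfa* encodes TGF-alpha, an EGFR ligand made by many epithelia. Its probe at chr6:86224838-86224897 was printed 10 times and read little above background. Its processed signal averaged 25.9 (knockout) and 19.2 (control) on array 1, and 14.3 and 21.9 on array 2. The knockout was higher on array 1 and lower on array 2. The log2 ratios of its spots ran from 0.09 to 0.92 with a median of 0.37 on array 1, and from -1.13 to -0.30 with a median of -0.56 over the 8 spots kept on array 2. The spot SD was 0.28 on each array, larger than for *Egf*, and only 62.5% of the knockout spots on array 2 were well above background. The mean of -0.09 ± 0.76 gave no direction.

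*Areg* and *Ereg* encode amphiregulin and epiregulin, ligands that are released by injured or stimulated epithelia. *Areg* was measured by 1 probe at chr5:91570090-91570149 and *Ereg* by 1 probe at chr5:91522553-91522612. Before background subtraction, *Areg* read 50.1 in the knockout and 70.4 in the control on array 1, over local backgrounds of 44 and 35. On array 2 it read 72.8 and 53.3, over 36 and 46. *Ereg* read 60.4 and 62.8 over backgrounds of 48 and 34.5 on array 1, and 68.2 and 46.4 over 36 and 44.5 on array 2. Neither gene was well above background in any of the 4 channels, so no fold change is given for them.

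*Egfr* encodes the EGF receptor, which binds all 6 ligands of the set. It was measured by 3 probes on the plus strand, and their first 30 bases are shown because they sample different stretches of the gene. The brightest, probe 1, was printed 10 times and lies at chr11:16813815-16813874, at base 5869 of transcript NM_207655 by the design. Probes 2 and 3 belong to transcript NM_007912, at chr11:16787172-16787231 and chr11:16783556-16783615. They start 89 bases apart in the transcript and 3616 bases apart in the genome.
Egfr probe 1: gttgcaagccactctaactgtagcaatgaa
Egfr probe 2: gaagtgtggccatctgggtacgttcaatgg
Egfr probe 3: tctggaagtatgcagatgccaataatgtct
Probe 1 had a signal of 2668 in the knockout and 2208 in the control on array 1, and 1980.15 and 2352 on array 2. Probe 2 had 757 and 563 on array 1, and 538 and 667 on array 2. Probe 3 had 528 and 459 on array 1, and 457 and 546 on array 2. All 3 probes read higher in the knockout on array 1 and lower on array 2. Their log2 ratios were 0.27 and -0.25 for probe 1, 0.43 and -0.31 for probe 2, and 0.20 and -0.26 for probe 3. The means were 0.01 ± 0.37, 0.06 ± 0.52 and -0.03 ± 0.33, so the difference between genotypes was smaller than the SD of the arrays for each stretch of the gene. Within an array the repeated spots of probe 1 were tight, from 0.25 to 0.30 over 9 spots of array 1 and from -0.28 to -0.22 over 8 spots of array 2.

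*Erbb2* encodes the receptor that has no known soluble ligand and serves as the partner of the others. Its probe at chr11:98298103-98298162 was printed 10 times. Knockout and control had signals of 988 and 1035 on array 1, and of 915 and 906 on array 2. Both channels were close on each array, and the log2 ratios were -0.07 and 0.01. The mean was -0.03 ± 0.06, and 84.8% of all genes tested had a larger mean ratio in size. Over the 10 spots of each array, the ratio ran from -0.13 to -0.00081 on array 1 and from -0.03 to 0.08 on array 2, where 6 spots were above 0.

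*Erbb3* encodes a receptor with little kinase activity of its own that binds neuregulins. Its probe lies on the minus strand at chr10:128006424-128006483. Knockout and control had signals of 21.9 and 39.4 on array 1, and of 48.5 and 24.5 on array 2. The Cy3 channel was the higher one both times, with log2 ratios of -0.85 and 0.99. The gap of 1.83 between the arrays was 0.353 with the normexp correction, and the mean of 0.07 ± 1.29 gave no direction. The spots read 89.5, 99.5, 119 and 98.1 before background subtraction, over local backgrounds of 46, 32, 34 and 46.

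*Erbb4* encodes the receptor that binds neuregulins as well as HB-EGF and betacellulin. It had 2 probes. Probe 1 lies on the minus strand at chr1:68078805-68078864 and belongs to transcript ENSMUST00000121473, and its first 30 bases are shown because the value of the gene rests on it.
Erbb4 probe 1: cccagctgaacaatttgaaaactgttctgc
Probe 1 had a signal of 541 in the knockout and 737 in the control on array 1, and 425 and 549.7 on array 2. The knockout was the lower channel each time, at log2 ratios of -0.45 and -0.37. The mean was -0.41 ± 0.05, or 0.753 times the control level, the largest mean ratio in size among the 8 members. A larger one was found for 5.49% of all genes tested. Probe 2 read 49.8, 66.5, 69.3 and 52.4 before background subtraction over local backgrounds of 45, 37.5, 34 and 44, and was not well above background in either genotype. The value of *Erbb4* therefore rests on 1 probe with 1 spot per array. Collecting duct markers, another segment that makes ErbB receptors, had sums of 22595 against 28419.8 on array 1 and 25703 against 20703 on array 2, so the order of the sums changed between the arrays. Of these 5 markers, 2 were lower and 0 higher on both arrays, against 15.6% and 12.1% of all genes tested. Their median was -0.15. DCT and thick ascending limb markers had the values given beside *Egf*, and the part of these 3 segments in the value of *Erbb4* was not tested.

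**Figure D3:**
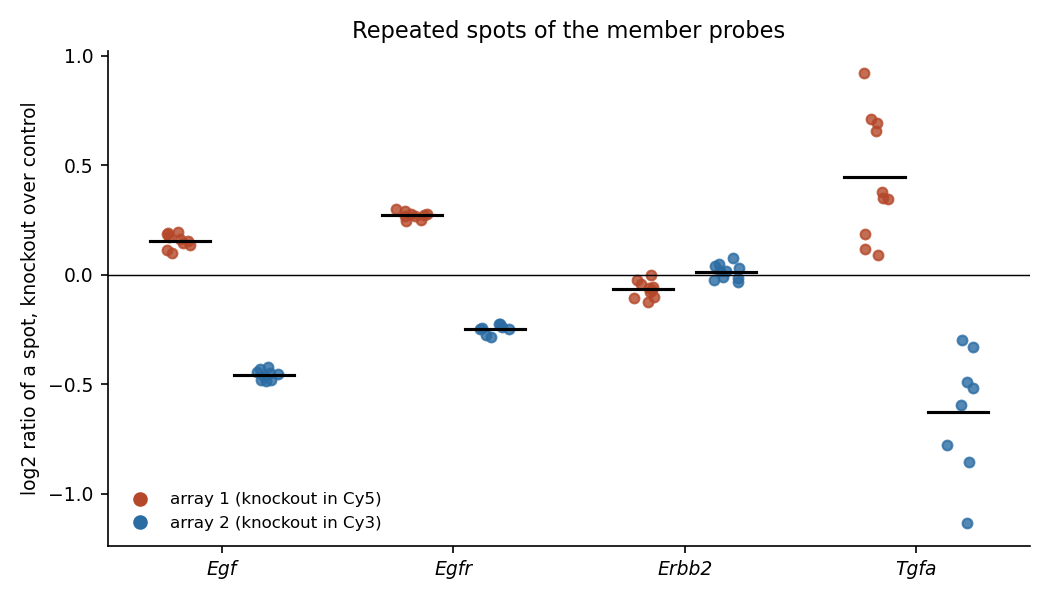
Log2 ratio of knockout over control in each spot of the 4 member probes printed 10 times on an array, on array 1 (red) and array 2 (blue), with the mean of an array as a line. The spots of *Egf* and *Egfr* lie on opposite sides of 0 on the arrays with little spread, those of *Erbb2* lie close to 0, and those of *Tgfa* spread widely.

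The ratio on array 1 minus that on array 2, divided by 2, holds the dye effect together with hybridization and spot noise and any difference between the RNA samples, and these cannot be told apart here. This array difference was 0.31 for *Egf*, 0.53 for *Tgfa*, 0.26 for *Egfr* (probe 1), -0.04 for *Erbb2* and -0.92 for *Erbb3*, the members of opposite direction on the arrays. It was -0.05 for *Hbegf*, -0.13 for *Btc* and -0.04 for *Erbb4*. Over all genes tested, its median size was 0.209 and that of the mean ratio was 0.0936. The array difference depended on the processing of the signals. With normexp and loess it was 0.31 for *Egf* and 0.28 for *Egfr*, but 0.05 for *Tgfa*, -0.18 for *Erbb3* and -0.04 for *Btc*. With loess and no background correction, *Egf* and *Egfr* stayed close to this, at 0.32 and 0.26. The dim probes moved more, to 0.14 for *Tgfa*, -0.43 for *Erbb3* and -0.09 for *Btc*. Background-subtracted signals were centred on the median without loess. They gave 0.71 for *Egf*, 0.44 for *Egfr*, 0.33 for *Tgfa* and -1.04 for *Erbb3*. Which step gave the larger values of *Egf* and *Egfr* was not tested. The plot of array 1 against array 2 shows the members among all genes.

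**Figure D4:**
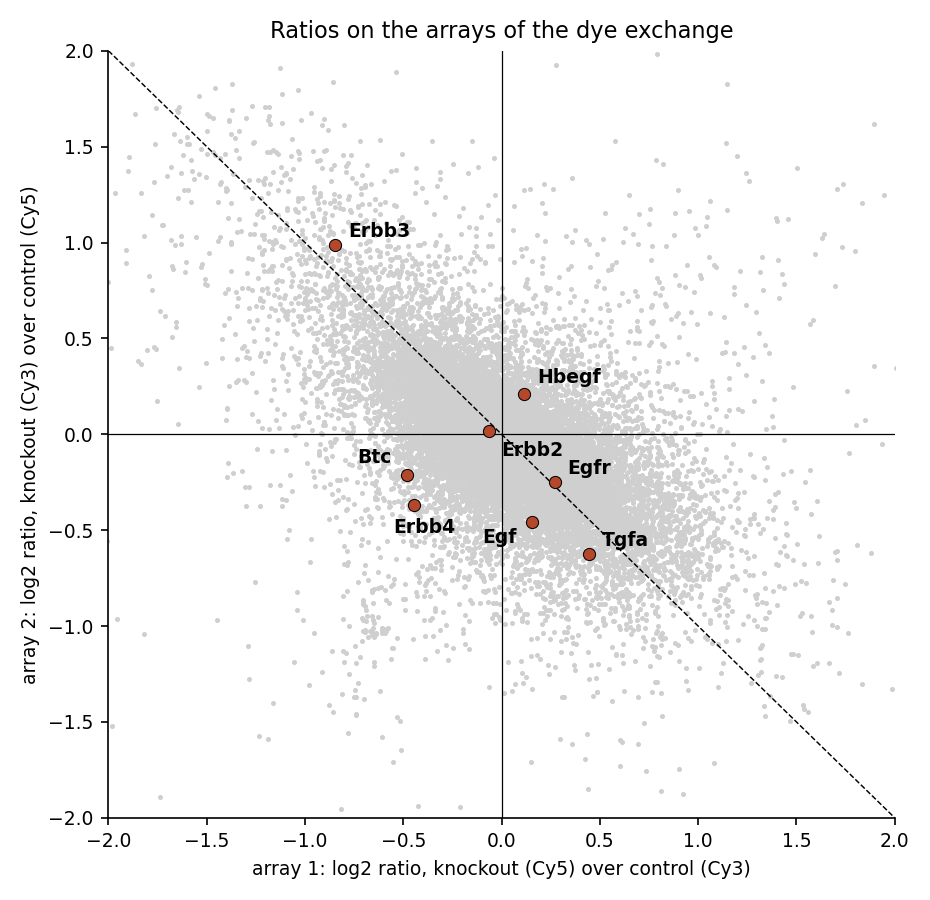
Log2 ratio of knockout over control on array 1 (horizontal) against array 2 (vertical) for the 19707 genes tested (grey) and the 8 members (red), with the line of equal and opposite ratios dashed. Points at the lower left and the upper right have the same direction on both arrays. The axes end at 2 and -2 and leave out 126 genes.

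Genes that act with the receptors were taken from 5 lists with 71 genes, all on the arrays, of which 64 were above background. None was at least 2-fold changed with the same direction (0 of 64). On both arrays, 6 were higher in the knockout and 9 were lower, together 23.4% of the 64. Of all genes tested, 27.7% kept their direction, 12.1% higher and 15.6% lower. The median log2 ratio was -0.02.

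Among the 5 other EGF family ligands, *Nrg1* and *Nrg4* were above background and *Epgn*, *Nrg2* and *Nrg3* were not. *Nrg1*, a neuregulin that binds ERBB3 and ERBB4, had log2 ratios of -0.13 and -0.10, a mean of -0.12 ± 0.02. *Nrg4*, which binds ERBB4, had a mean of 0.14 ± 0.20. Sheddases cut the ligand precursors from the membrane, and all 9 sheddases and partners were above background. On both arrays, 1 was higher and 1 lower, against 12.1% and 15.6% of all genes tested. Their values ran from -0.17 ± 0.18 for *Adam8* to 0.17 ± 0.26 for *Adam12*, both metalloproteases.

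Adaptors and kinases carry the signal inward. All 27 were above background, 3 higher and 1 lower on both arrays, against 12.1% and 15.6% of all genes tested. The lowest mean was that of *Src*, a tyrosine kinase, at -0.19 ± 0.96, and the highest that of *Plcg1*, which encodes phospholipase C gamma, at 0.41 ± 1.71. Both changed direction between the arrays, and both were dim. *Src* had processed signals of 6.88 (knockout) and 12.6 (control) on array 1, and 11.9 and 8.48 on array 2. *Plcg1* had 17.9 and 31.2 on array 1, and 62.4 and 20.4 on array 2. Of the 21 negative regulators, 18 were above background and *Spry2*, *Spry3* and *Dusp5* were not. On both arrays, 2 were higher and 3 were lower, against the same 12.1% and 15.6%. *Spred2*, an inhibitor of the RAS-ERK cascade, had the lowest mean at -0.19 ± 1.62. *Lrig1*, a membrane protein that promotes receptor degradation, had the highest at 0.53 ± 1.06, from log2 ratios of 1.28 and -0.22.

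Transcripts that ERK signalling induces are a downstream readout, and 8 of 9 were above background, *Fosl1* being the exception. On both arrays, 0 were higher and 3 were lower in the knockout, against 12.1% and 15.6% of all genes tested. Nothing was read from counts this small, and the median of the 8 was -0.07. *Egr1*, an immediate early transcription factor, had the lowest mean at -0.51 ± 0.67, with log2 ratios of -0.03 and -0.99, so array 2 supplied nearly all of it. The highest was *Etv5*, an ETS factor, at 0.04 ± 0.53. The other genes lower on both arrays, named after their values were seen, were *Ccnd1*, which encodes cyclin D1, at -0.32 ± 0.15 and *Etv4* at -0.09 ± 0.07.

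**Figure D5:**
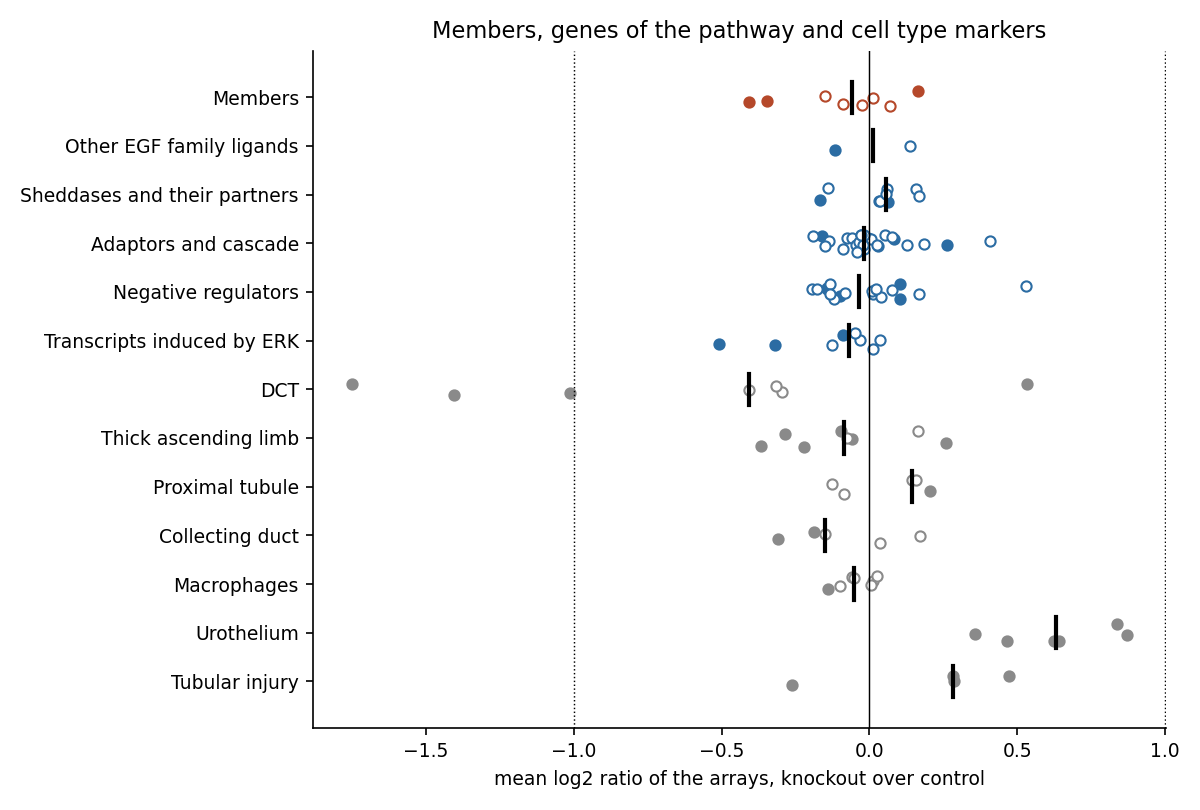
Mean log2 ratio of knockout over control for the 8 members (red), the 64 pathway genes above background in 5 lists (blue) and the markers of kidney and other cell types (grey). Filled points have the same direction on both arrays, open points do not, black bars are medians and dotted lines are the 2-fold limits. Members and pathway genes stay within the limits, and 3 DCT markers lie below the lower limit.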

How the data were processed

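Kidney RNA of knockout and control mice was labelled from an oligo-dT primer and hybridized to 2 Agilent 4x44K arrays with exchanged dyes. Per the file headers, the deposited scanner files come from Feature Extraction 10.7.3.1, while the submitters' processing notes name 10.5.1.1. The authors deposited in them the signal intensity of each spot before and after background subtraction, and a processed intensity corrected for background and, within each array, for the dyes. The authors also deposited log10 ratios, in these files as red over green and in a matrix as knockout over control. Weak signals and the dye correction limit these ratios most for dim probes. Arrays have no read depth, and their number limits the precision.

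Ratios were computed on the log2 scale from the deposited processed intensity and turned to knockout over control by the dye labels. Spots that the software had marked as non-uniform, or as outliers among repeats, were removed (1 of *Egf*, 3 of *Egfr* and 2 of *Tgfa* over both arrays), spots of a probe were averaged, and a gene took its brightest probe over the 4 channels. A probe was above background where, for one genotype at least, over 50% of its spots on each array were called so by the software. Both arrays shared a slide and a scan, so there was no batch to separate. With 1 replicate per genotype, genes were called by size, at a mean log2 ratio of at least 1 and the same direction on both arrays. Simulated data for the knockout against control comparison held 19707 genes, 200 of them changed by a log2 ratio of 1.5. On these data, this rule recovered 99.5% of changed genes, the methods' t-test with its fold limit 47%, and limma 0%. A log2 ratio of 1.5 lies above the rule's own limit of 1. Recovery of smaller ratios, such as those of the members, was not tested, and no rate of false calls is given. The rule and the tests are therefore not ranked by these percentages. Alternatives were normexp (offset 50) with loess, background-subtracted signals (floor 1) centred on the median, loess alone, the deposited ratios, other filters and probe rules, each array alone, other limits, the methods' t-test (threshold 0.1, fold above 2) and limma 3.58.1 in R 4.3.3. Python 3.11.15 with pandas 2.3.3 was used for the rest.

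All members were named with every probe. From the pathway lists, genes at least 2-fold changed or otherwise the highest and lowest mean were named, with *Cnnm2* to check the labels and *Trpm6* as the channel that EGF acts on. The members and lists were chosen with earlier results of these data known. Probe sequences and mm9 positions are those of the files, and those of 1 probe of *Erbb4* are not reported here. Exon and UTR annotation of that build and protein sequences were not used here, so a planned search for the EGF motif was not run.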

Additional observations from a re-analysis of the deposited data

How the results depend on the processing

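The count of members at least 2-fold changed was 0 in all 16 alternatives, among them a limit of 0.5 on the log2 scale and each array alone. Some of these could not have differed. The adjusted t-test and adjusted limma passed 0 genes of any kind, and the deposited ratios repeat the processed ones. A 2-fold change on each array and the t-test with its fold limit are stricter than the main rule, so they could not add a member. The filter for signal above background in both genotypes kept the same 8 members with the same ratios. The count with the same direction on both arrays was 3 or 4 in the 9 alternatives that give one, the fourth being *Ereg* when dim probes were kept. Of the 5 other corrections and sources of the values, those that repeat the processed ratios could not have changed a direction. Under the rest (normexp with loess, background-subtracted signals, loess alone), *Hbegf* stayed higher and *Erbb4* and *Btc* lower on both arrays. The median over the members lay between -0.23 on array 2 alone and 0.02 on array 1 alone. Among settings that use both arrays, the log2 ratio of *Hbegf* lay between 0.16 and 0.18, that of *Erbb4* between -0.41 and -0.29, that of *Btc* between -0.35 and -0.10 and that of *Egf* between -0.18 and -0.15. The mean ratios of *Erbb2*, *Erbb3* and *Tgfa* changed sign between settings, and none of the 3 was called. The low and high values were -0.03 and 0.01 for *Erbb2*, -0.05 and 0.10 for *Erbb3*, and -0.09 and 0.01 for *Tgfa*. The methods' t-test at its threshold of 0.1 passed 984 of the 19707 genes tested without the fold limit, among them *Erbb4* as 1 of 8 members. With the fold limit it passed 36 genes, 0 of them members. The t-test takes the arrays as replicates, although they count as 1 replicate of each genotype, so nothing is read from the pass of *Erbb4*. After Benjamini-Hochberg adjustment it passed 0 genes. Limma passed 0 genes after adjustment, but it recovered 0% of the changed genes in the simulation, so this count says nothing about these genes. At an unadjusted 0.05 limma passed 256 genes, again 0 members. It also takes the arrays as replicates, so nothing is read from that count. Each array pairs knockout with control, and the methods' t-test is paired over the arrays. A further replicate block could not be fitted, since each genotype counts as 1 replicate. Signal over background limits *Areg*, *Ereg* and *Erbb4* probe 2, which gave no ratio, and *Tgfa*, *Erbb3* and *Btc*, whose ratios rest on signals not far above it.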
